A study of Mus musculus with 8 samples.

Results

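The genes described here are 29 lysosomal hydrolases and membrane proteins, taken by their symbols from a fixed list. That list was drawn up with earlier results of these data known. The deposited table holds 53465 gene identifiers, 14369 genes passed the filter on low counts, and all 29 members were found and tested. The samples were bone-derived mesenchymal stem cells (MSCs, stromal cells able to become bone, fat or cartilage cells) cultured at 2% oxygen (hypoxia, 4 samples) or 21% oxygen (normoxia, 4 samples). They came from the bones of C57BL/6N wild-type male mice aged 3 to 5 months, and all samples share this genotype and a sort on day 12. Per the study's methods the sort kept cells negative for CD45 and Ter119 and positive for Sca-1 and CD140a, and the cells of both groups were grown at low oxygen before it. The sorted population was then divided between the oxygen levels and, per the methods, cultured there for a week. The 4 samples of a group are numbered alike in both groups, and nothing in the labels says how many animals or cultures stand behind each number, so the p-values measure the spread between these samples. In such bulk RNA, fewer cells of a type and less RNA per cell cannot be told apart.

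The lysosome is the acidic compartment in which cells break down proteins, glycans, glycogen and lipids taken up from outside or delivered by autophagy. Its soluble enzymes are made in the endoplasmic reticulum, mostly tagged with mannose 6-phosphate in the Golgi and carried to the lysosome, where the proton pump (V-ATPase) keeps the lumen acidic. Transcription factor EB (TFEB) and its relatives of the MiT/TFE family activate many lysosomal genes through the CLEAR element, whose centre is the E-box CACGTG, and they are held in the cytoplasm when the kinase mTORC1 is active on the lysosomal surface. In bone, lysosomal proteases are best known from the osteoclast, which secretes cathepsin K onto the bone surface, but stromal cells also use these enzymes to turn over collagen and proteoglycans.

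Because TFEB is itself among the members, the promoters of the members were searched for the E-box. RefSeq (GRCm38.p6) gave a window of 250 bases before to 50 bases after a start for 26 of the 29 members, with no window for Ctsb, Ctsh and Npc1. CACGTG, which reads the same on both strands, was found in 10 of the 26 members (38.5%), against 7.15% of all 32851 windows and 11.6% of the 10489 tested genes with a window. The longer form TCACGTGA was found in 5 of the 26 (19.2%), against 0.974% of all windows and 2.17% of tested genes. CACGTG contains ACGTG on either strand, letters shared with the core of the hypoxia-response element, and ACGTG occurred in 11 of the 26 (42.3%) against 28.9% of tested genes. The members with CACGTG were Lamp1, with 4 copies in its window, and Ctsa, Cln3, Ctsd, Mcoln1, Glb1, Gaa, Ctsl, Ctsf and Gla. The 10 members with CACGTG had a median log2 change, normoxia minus hypoxia, of -0.085, and the 16 without it had one of 0.055. Such matches are descriptions of letters and not of binding.

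The stretches upstream of 4 members that passed the test for oxygen are shown for both kinds, each 5′ to 3′ on the strand of its gene, with CACGTG in capitals and cut where an annotated exon begins. Ctsd, higher in normoxia, has copies beginning 245 and 98 bases before its RefSeq start, of which the first lies in the 39 bases at chr7:142388039-142388077 (minus strand). Gaa, lower in normoxia, has 1 copy that begins 140 bases before its start, in the 174 bases at chr11:119267713-119267886 (plus strand). Ctsk (higher; chr3:95498960-95499209, plus strand) and Idua (lower; chr5:108660081-108660330, plus strand) have none in the 250 bases printed. The motif was thus present and absent among members of either direction.
Ctsd: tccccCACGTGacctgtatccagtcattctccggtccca
Gaa: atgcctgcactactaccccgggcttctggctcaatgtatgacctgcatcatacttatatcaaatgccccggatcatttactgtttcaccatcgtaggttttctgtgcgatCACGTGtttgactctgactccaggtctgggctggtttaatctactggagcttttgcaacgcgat
Ctsk: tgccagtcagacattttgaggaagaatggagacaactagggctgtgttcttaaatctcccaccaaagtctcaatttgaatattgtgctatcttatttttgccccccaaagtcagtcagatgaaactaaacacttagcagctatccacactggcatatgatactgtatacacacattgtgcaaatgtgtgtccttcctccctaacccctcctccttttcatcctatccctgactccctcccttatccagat
Idua: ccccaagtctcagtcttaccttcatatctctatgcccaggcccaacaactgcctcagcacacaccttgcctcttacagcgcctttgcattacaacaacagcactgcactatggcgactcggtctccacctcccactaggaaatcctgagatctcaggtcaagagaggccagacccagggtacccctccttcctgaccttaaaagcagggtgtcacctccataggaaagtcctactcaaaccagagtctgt

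The libraries held 12898291 to 25132141 counts, and hypoxia replicate 1 was the one far above the others, which reached 13433824. Levels are given as CPM (counts of a gene relative to the size of its library), scaled by the trimmed mean of M-values (TMM), and 3 counts correspond to 0.119 to 0.233 CPM before that scaling. The labelled cell type was checked with 12 MSC markers, including Ly6a (Sca-1) and Pdgfra (CD140a), and all of them passed the filter, with summed levels of 4594 to 5528 CPM in hypoxia and 4900 to 5288 CPM in normoxia. Macrophages, which are rich in lysosomes, would be removed by a gate on CD45, yet 17 of 17 macrophage markers passed the filter and were at 0 in no sample. Their summed level was 817 to 1830 CPM in hypoxia and 830 to 1652 CPM in normoxia. Of these markers Lyz2 rose in normoxia by 0.56 on the log2 scale, Laptm5, Mrc1 and C1qa fell, and the median change of the list was -0.39. Ptprc, which encodes CD45, had 140 to 263 counts a sample. Of the 9 osteoclast markers 5 passed the filter, and these summed to 14.7 to 23.7 CPM in hypoxia and 12.0 to 20.1 CPM in normoxia. Calcr was at 0 in every sample, Ocstamp, Dcstamp, Mmp9 and Oscar had at most 7 counts, and Acp5 and Atp6v0d2 at most 25, while Tnfrsf11a had 74 to 169 counts and Itgb3 68 to 182. Of the 5 that were tested 2 fell, Acp5 and Itgb3 (log2 change -0.70, adjusted p = 0.0044). Of 7 erythroid and 5 endothelial markers, Tek with 13 to 33 counts was the most counted.

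At 21% oxygen, 4 lysosomal proteases (Ctsh, Ctsd, Ctsk and Ctsb) and the glycosidases Manba and Gla were higher than at 2% oxygen, by 1.30-fold to 1.60-fold. The glycosidases Gaa and Idua, the cholesterol transporter Npc1 and the protease Ctsz were lower, the first pair to 0.751 and 0.762 of their hypoxic level and the other pair to 0.869 and 0.896. The other 19 members did not pass the test, among them both LAMP proteins, the saposin precursor Psap and Tfeb. Thus 6 members rose and 4 fell (34.5% of 29; limma-trend, Benjamini-Hochberg adjusted p under 0.05), against a background of 34.6% of all tested genes in either direction, 18.0% higher and 16.5% lower. The median log2 change of the members was 0.03, beside 0.00 for all tested genes, with 16 members above 0 and 13 below. The changes ran from -0.47 (Cln3, not past the threshold) to 0.67 (Ctsh).

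When samples with the same number were treated as pairs (the replicate block), 11 members rose and 8 fell (65.5%), against a background of 46.0% in either direction, 23.3% higher and 22.7% lower. With an added correction for transcript GC content and length the counts were 9 and 8 (58.6%), against a background of 43.2%, 21.7% higher and 21.5% lower. Without a block, the 4 values of one group did not overlap those of the other for 11 members (37.9%; 32.6% of all tested genes), 8 of them higher in normoxia and 3 lower. Scaling by library size alone, without TMM, gave 9 higher and 2 lower members, beside 25.1% higher and 11.0% lower of all tested genes, with Ctsz and Npc1 no longer called, while it moved the median change of all genes to 0.09. Without hypoxia replicate 1, the deepest library, 6 members rose and 6 fell, beside 19.5% and 17.6% of all tested genes. Without hypoxia replicate 3, 7 rose and 2 fell (Gaa and Idua), beside 13.8% and 12.5%. Leaving out replicate 3 of both groups left Ctsb, Ctsd, Ctsh, Ctsk and Manba higher and Gaa lower, beside 10.2% and 9.37% of all tested genes.

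**Figure D1:**
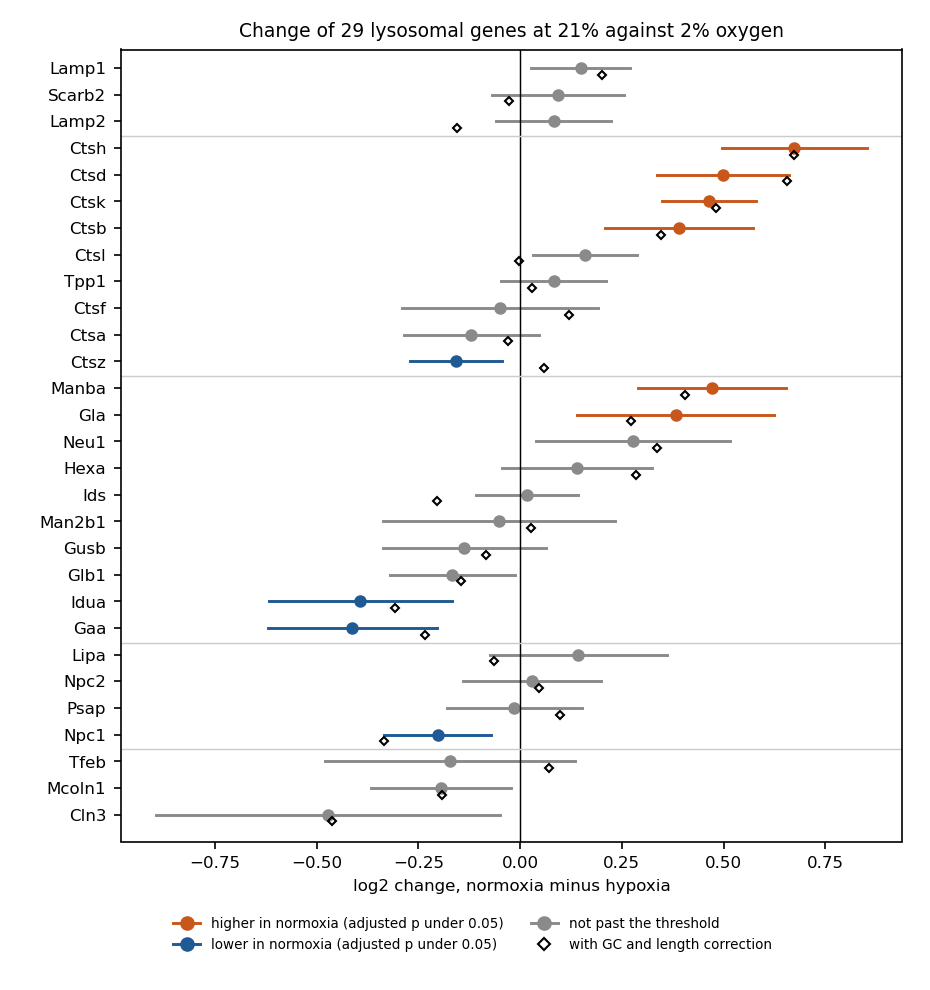
Log2 change (normoxia minus hypoxia, horizontal axis) of the 29 lysosomal genes, grouped from top to bottom as structural membrane proteins, proteases, glycosidases and a sulfatase, lipid-handling proteins, and channel, battenin and regulator. Circles are fitted changes with 95% confidence intervals over 4 against 4 samples, orange and blue where the adjusted p passed 0.05, and open diamonds are the changes after the GC and length correction; Ctsh lies at 0.67, and the diamond of Ctsz lies on the other side of 0 from its circle.

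Levels of different genes are comparable only per length, so CPM was divided by the kilobases of annotated exon (mean ± SD, n = 4). This length joins the exons of all annotated transcripts of a gene and can far exceed its longest transcript. It was 9552 against 3604 bases for Lamp2 and 5438 against 3299 for Npc2, so the order given here holds for this length only. In hypoxia Psap, the precursor of the saposins, which help enzymes reach sphingolipids, was highest at 445 ± 40.5 CPM per kilobase. Ctsd (191 ± 18.6) and Lamp1 (183 ± 8.03) followed and differed by less than their spread, then Ctsz (157 ± 6.93), Ctsb (120 ± 9.55), Ctsk (85.4 ± 2.46), Gaa (79.8 ± 10.2) and Hexa (75.2 ± 7.40). Ctsk, Gaa and Hexa were neighbours within their spread, as were Npc2 (64.7 ± 7.30) and Ctsl (64.7 ± 3.72), and Gusb (23.0 ± 3.12), Tpp1 (22.2 ± 1.37) and Glb1 (22.2 ± 1.01). The lowest were Manba (2.24 ± 0.14), Tfeb (1.52 ± 0.126) and Cln3 (1.03 ± 0.237). In normoxia Psap stood at 440 ± 17.7 and Ctsd at 270 ± 13.4, and Gaa, Gusb and Mcoln1 moved down in the order by more than 1 place while Ctsl, Ctsh, Gla and Lipa moved up. Psap, Ctsb and Ctsd together held 39.7% of all counts of the members, and 8 genes held 72.4%.

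**Figure D2:**
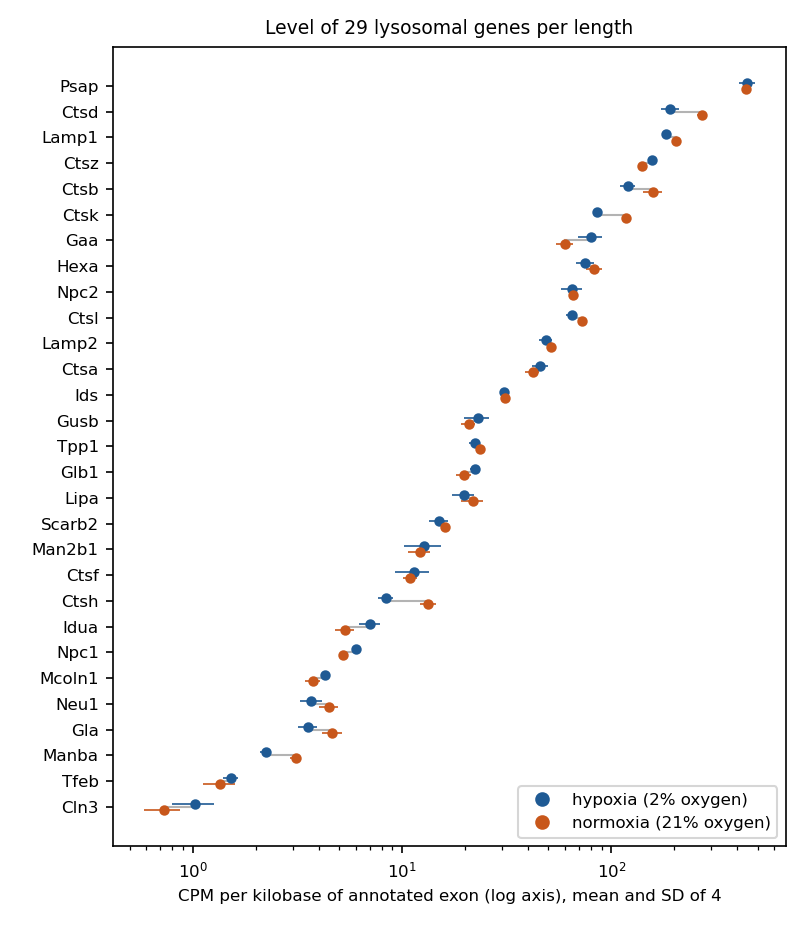
Level of each member as CPM per kilobase of annotated exon (log axis), mean and SD of 4 samples in hypoxia (blue) and normoxia (orange), ordered by the hypoxic level. The levels span from 1.03 for Cln3 to 445 for Psap in hypoxia; Ctsd, Ctsk and Ctsh have their orange points clearly to the right and Gaa and Idua to the left.

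Of the 3 structural membrane proteins 0 passed by limma-trend, edgeR or limma-voom, with 1 (Lamp1) at an unadjusted p under 0.05 and called by DESeq2. Lamp1 and Lamp2 are the glycoproteins that line the inner face of the lysosomal membrane, and Scarb2 carries beta-glucocerebrosidase to the lysosome. Lamp1 measured 463, 485, 495 and 514 CPM in hypoxia replicates 1 to 4 and 522, 545, 564 and 538 CPM in normoxia. Its groups did not overlap, and the log2 change of 0.15 ± 0.056 (SE) had an adjusted p of 0.057, which became 0.013 with the replicate block (0.000169 to 0.227 over 23 alternatives). Lamp2 ranged from 420 to 494 CPM in hypoxia and from 471 to 512 in normoxia (log2 change 0.08 ± 0.065, adjusted p = 0.36), and its change turned to -0.16 when the block was joined to the correction for GC and length (adjusted p = 0.0035; 0.00353 to 0.686 over the alternatives). Scarb2 ranged from 82.1 to 106 CPM and from 98.02 to 105 CPM (log2 change 0.09 ± 0.074, adjusted p = 0.37).

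Of the 9 proteases 4 rose in normoxia and 1 fell, beside 18.0% and 16.5% of all tested genes, and the groups did not overlap for 6, beside 32.6% of all tested genes. Cathepsin D, the main aspartic protease of the lysosome (Ctsd, ENSMUSG00000007891, chr7:142375911-142388038, minus strand, GRCm38), measured 397, 496, 474 and 433 CPM in hypoxia replicates 1 to 4. In normoxia it measured 593, 657, 661 and 625 CPM. Every normoxic sample lay above every hypoxic one, and the level rose 1.41-fold (log2 change 0.50 ± 0.074, adjusted p = 0.00046, limma-trend).

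Cathepsin K, a collagenase that is the main bone-degrading protease of the osteoclast (Ctsk, ENSMUSG00000028111, chr3:95499256-95509362, plus strand), was measured at 134, 130, 127 and 125 CPM in hypoxia and 178, 185, 168 and 182 CPM in normoxia. The hypoxic values lay close together, and all normoxic values lay above them. The rise was 1.38-fold (log2 change 0.46 ± 0.053, adjusted p = 0.00012). Of the 5 osteoclast markers tested, Acp5 and Itgb3 fell. Atp6v0d2 (log2 change 0.55), Oscar (0.35) and Tnfrsf11a (0.009) lay above 0 and were not called. The part of such cells in the level of Ctsk was not tested.

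Cathepsin H, a cysteine protease that trims peptides from their amino end (Ctsh, ENSMUSG00000032359, chr9:90054152-90076089, plus strand), showed the largest change of the 29 genes. It measured 38.2, 41.6, 35.2 and 35.4 CPM in hypoxia and 61.9, 66.3, 59.1 and 53.3 CPM in normoxia. The groups were far apart, with a rise of 1.60-fold (log2 change 0.67 ± 0.082, adjusted p = 0.00015). Cathepsin B (Ctsb, ENSMUSG00000021939, chr14:63122462-63145923, plus strand), an abundant cysteine protease, measured 645, 744, 783 and 725 CPM in hypoxia and 862, 897, 1087 and 957 CPM in normoxia. Replicate 3 was the highest in both groups, the groups did not overlap, and the rise was 1.31-fold (log2 change 0.39 ± 0.084, adjusted p = 0.0037).

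Cathepsin Z, a carboxypeptidase (Ctsz, ENSMUSG00000016256, chr2:174427493-174439039, minus strand), measured 214, 238, 225 and 228 CPM in hypoxia and 200, 202, 208 and 200 CPM in normoxia. The groups did not overlap and the level fell to 0.896 of the hypoxic one (log2 change -0.16 ± 0.052, adjusted p = 0.034). This call was not held by the GC and length correction, under which the change was 0.06 (adjusted p = 0.47; 0.0108 to 0.471 over 23 alternatives), nor when any single sample other than hypoxia replicate 1 was left out.

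Among the proteases that did not pass, cathepsin L (Ctsl), which processes many other lysosomal enzymes, ranged from 394 to 450 CPM in hypoxia and from 455 to 494 CPM in normoxia. The groups did not overlap, and the log2 change of 0.16 ± 0.059 had an adjusted p of 0.052, or 0.014 with the block (0.00776 to 0.979 over the alternatives). The GC and length correction brought the change to -0.003. Cathepsin A (Ctsa), the serine carboxypeptidase that shields beta-galactosidase and sialidase, ranged from 188 to 233 CPM and from 184 to 213 CPM (log2 change -0.12 ± 0.076, adjusted p = 0.25). Cathepsin F (Ctsf) spread from 48.1 to 72.8 CPM in hypoxia with replicate 2 highest, and from 49.3 to 58.9 CPM in normoxia (log2 change -0.05 ± 0.11, adjusted p = 0.76). Tpp1, a tripeptidyl peptidase lost in a childhood form of neuronal ceroid lipofuscinosis, ranged from 105 to 120 CPM and from 117 to 125 CPM (log2 change 0.08 ± 0.059, adjusted p = 0.31). The 6 cysteine cathepsins thus held 3 that rose and 1 that fell, beside 18.0% and 16.5% of all tested genes.

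**Figure D3:**
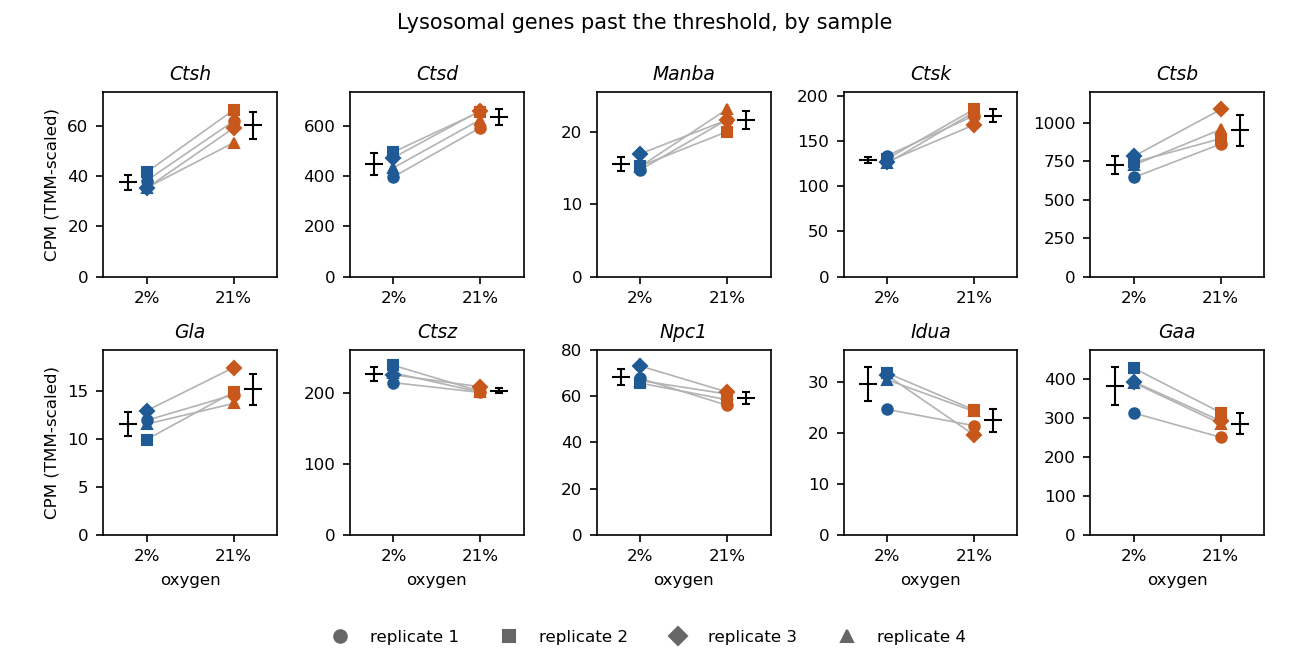
Level in CPM (TMM-scaled, linear axes from 0) of the 10 members past the threshold, in each sample at 2% oxygen (blue) and 21% oxygen (orange). Symbols mark replicate numbers, grey lines join samples with the same number, and black bars are mean and SD (n = 4); the first 6 genes rise along all 4 lines and the last 4 fall along all 4.

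Of the 10 enzymes that take apart glycans, 2 rose and 2 fell, beside the same 18.0% and 16.5% of all tested genes. Acid alpha-glucosidase, which degrades glycogen in the lysosome and is deficient in Pompe disease (Gaa, ENSMUSG00000025579, chr11:119267887-119285454, plus strand), measured 313, 429, 394 and 391 CPM in hypoxia and 250, 314, 293 and 286 CPM in normoxia. Hypoxia replicate 1 was the lowest of its group and just under normoxia replicate 2, so the groups overlapped there, although each hypoxic sample was above the normoxic one with its number. The level fell to 0.751 (log2 change -0.41 ± 0.095, adjusted p = 0.0057). With the GC and length correction but no block, the fall was -0.23 with an adjusted p of 0.050 (2.32e-07 to 0.05 over 23 alternatives).

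Idua and Ids act in turn on the iduronic acid of heparan and dermatan sulfate, the former as a glycosidase and the latter as a sulfatase. Idua (ENSMUSG00000033540, chr5:108660331-108684557, plus strand) measured 24.7, 31.8, 31.4 and 30.5 CPM in hypoxia and 21.5, 24.6, 19.6 and 24.3 CPM in normoxia. Hypoxia replicate 1 lay apart below its group but still just above the highest normoxic sample, and the level fell to 0.762 (log2 change -0.39 ± 0.10, adjusted p = 0.011). Ids ranged from 151 to 166 CPM in hypoxia and from 148 to 167 CPM in normoxia, with a log2 change of 0.02 ± 0.057 (adjusted p = 0.85). The GC and length correction moved it to -0.20 (adjusted p = 0.0125, or 0.00077 with the block; 0.000772 to 0.983 over the alternatives); its transcript has a GC content of 41.4%.

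Beta-mannosidase (Manba, ENSMUSG00000028164, chr3:135485611-135571404, plus strand), which removes the last mannose of N-linked glycans, measured 14.8, 15.3, 17.02 and 15.3 CPM in hypoxia and 21.8, 20.1, 21.7 and 23.2 CPM in normoxia. The groups did not overlap, and the rise was 1.39-fold (log2 change 0.47 ± 0.084, adjusted p = 0.0013). Alpha-galactosidase A (Gla, ENSMUSG00000031266, chrX:134588149-134601125, minus strand), deficient in Fabry disease, measured 12.0, 9.95, 12.96 and 11.6 CPM in hypoxia and 14.6, 14.9, 17.5 and 13.7 CPM in normoxia. Replicate 3 was again the highest of both groups, and the rise of 1.30-fold (log2 change 0.38 ± 0.11, adjusted p = 0.019) had an adjusted p of 0.072 without normoxia replicate 3 and 0.087 with the GC and length correction (0.00245 to 0.0866 over the alternatives).

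The other 5 glycosidases did not pass the test without the block. Neu1, the sialidase, ranged from 12.3 to 15.7 CPM in hypoxia and from 15.7 to 19.3 CPM in normoxia, with a log2 change of 0.28 ± 0.11 and an adjusted p of 0.068 (0.015 with the block; 0.00247 to 0.211 over the alternatives). Hexa, the alpha subunit of beta-hexosaminidase, ranged from 129 to 162 CPM and from 144 to 177 CPM (log2 change 0.14 ± 0.084, adjusted p = 0.23; 0.025 with the block, and 5.71e-06 to 0.508 over the alternatives). Glb1, the acid beta-galactosidase, ranged from 62.5 to 69.6 CPM and from 53.7 to 64.5 CPM (log2 change -0.17 ± 0.070, adjusted p = 0.086; 0.037 with the block, and 0.033 to 0.418 over the alternatives). Replicate 1 was alike in both groups, at 62.5 and 62.7 CPM. Gusb, the beta-glucuronidase, ranged from 88.9 to 122 CPM and from 88.2 to 104 CPM (log2 change -0.14 ± 0.092, adjusted p = 0.28; 0.049 with the block, and 0.0492 to 0.748 over the alternatives). Man2b1, the acid alpha-mannosidase, had the widest spread of these enzymes, from 76.1 to 126 CPM in hypoxia and from 87.3 to 113 CPM in normoxia (log2 change -0.05 ± 0.13, adjusted p = 0.79).

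Of the 4 lipid-handling proteins Npc1 fell and the others did not pass. Npc1 and Npc2 together export cholesterol from the lysosome, and their loss causes Niemann-Pick disease type C. Npc1 (ENSMUSG00000024413) measured 67.8, 65.8, 73.2 and 66.9 CPM in hypoxia and 56.1, 58.6, 61.9 and 61.0 CPM in normoxia. All hypoxic values lay above all normoxic ones, and the level fell to 0.869 (log2 change -0.20 ± 0.061, adjusted p = 0.022); without hypoxia replicate 3 the adjusted p was 0.070 (7.34e-06 to 0.17 over the alternatives). Npc2 ranged from 310 to 405 CPM and from 333 to 374 CPM, with a log2 change of 0.03 ± 0.078 (95% confidence interval -0.14 to 0.20, adjusted p = 0.81). Psap, the most counted member, measured 1060, 1311, 1266 and 1252 CPM in hypoxia and 1137, 1213, 1245 and 1233 CPM in normoxia. Its groups overlapped throughout, and the log2 change of -0.01 ± 0.076 had an interval of -0.18 to 0.15 (adjusted p = 0.91). Lipa, the acid lipase that frees cholesterol and fatty acids from lipoproteins, ranged from 110 to 147 CPM and from 130 to 169 CPM (log2 change 0.14 ± 0.10, adjusted p = 0.30; 0.032 with the block, and 0.00437 to 0.684 over the alternatives).

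Of the channel, battenin and the regulator, 0 passed by limma-trend, edgeR, DESeq2 or limma-voom without the block, with 2 (Cln3 and Mcoln1) at an unadjusted p under 0.05, and all 3 changes were below 0. Mcoln1, the calcium channel of the lysosomal membrane, measured 30.6, 34.0, 31.6 and 33.6 CPM in hypoxia and 25.4, 28.2, 31.2 and 28.8 CPM in normoxia (log2 change -0.19 ± 0.079, adjusted p = 0.074; 0.031 with the block, and 0.022 to 0.337 over the alternatives). Cln3 encodes battenin, the membrane protein lost in juvenile neuronal ceroid lipofuscinosis, and measured 4.18, 5.62, 7.26 and 6.78 CPM in hypoxia and 3.27, 3.89, 4.47 and 5.20 CPM in normoxia. The groups overlapped, replicate 1 was the lowest of both, and the log2 change of -0.47 ± 0.19 had an adjusted p of 0.079, or 0.0083 with the block (0.00829 to 0.244 over the alternatives). Tfeb measured 8.11, 8.99, 7.88 and 9.40 CPM in hypoxia and 5.79, 8.93, 8.15 and 7.84 CPM in normoxia. Normoxia replicate 1 was the low value, and the log2 change of -0.17 ± 0.14 (interval -0.48 to 0.13) had an adjusted p of 0.38.

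**Figure D4:**
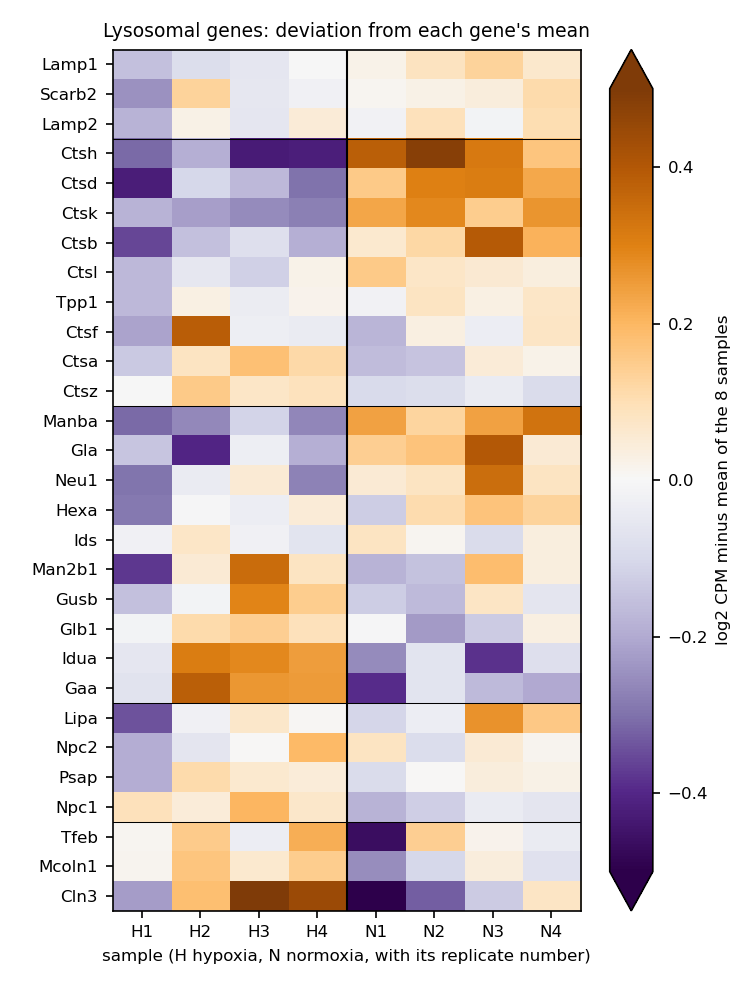
Deviation of log2 CPM from the mean of the 8 samples for each member (rows, in the groups of the plot of changes) in hypoxia samples H1 to H4 and normoxia samples N1 to N4. Orange is above and purple below the mean, with colours saturating at 0.5; Ctsh, Ctsd, Ctsk, Ctsb and Manba turn from purple to orange across the line between the groups, and many rows are darkest purple in H1.

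Over the members, the deviations of same-numbered samples from their group means correlated at 0.53, 0.46, 0.54 and 0.44 for replicates 1 to 4. Samples with different numbers were not compared. All 4 differences within numbers were above 0 for 12 of the 29 members, beside 27.7% of all tested genes. They were below 0 for 7, beside 26.8%. Such counts describe the difference between the oxygen levels and not the likeness of same-numbered samples. The 12 comprised the 6 that rose and Lamp1, Lamp2, Ctsl, Hexa, Neu1 and Tpp1, and the 7 comprised the 4 that fell and Ctsa, Cln3 and Mcoln1. Replicate 3 was the highest sample of both groups for 8 members, Ctsa, Ctsb, Gla, Gusb, Man2b1, Neu1, Npc1 and Lipa, and for 15 of the 17 macrophage markers. The mean log2 CPM of 15 of those markers, leaving out Ctss and Laptm5 as lysosomal genes, was 4.50, 5.11, 5.66 and 5.36 in hypoxia replicates 1 to 4 and 4.28, 4.61, 5.42 and 4.91 in normoxia, so each normoxic sample was below the hypoxic one of its number. With this mean as a covariate, an alternative chosen after the values were seen, 10 members were higher and 2 lower, beside 15.6% and 14.2% of all tested genes: Lamp1, Hexa, Neu1 and Lipa joined those that rose, and Ctsz (adjusted p = 0.085) and Npc1 (adjusted p = 0.063) were no longer called. Ctsb, Ctsd, Ctsh, Ctsk, Manba, Gla, Gaa and Idua were still called in their directions.

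The summed level of the 29 genes was 5607, 6559, 6485 and 6467 CPM in hypoxia and 6436, 6725, 7025 and 6828 CPM in normoxia. Hypoxia replicate 1 was far below the rest, and the other hypoxic samples lay between normoxia replicates 1 and 2, so the groups overlapped. Without TMM scaling the members took 0.534% to 0.641% of all counts in hypoxia and 0.658% to 0.728% in normoxia, with no overlap, so the separation of the sums depended on the scaling. These sums are carried by the most counted genes, and no test was made on them.

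**Figure D5:**
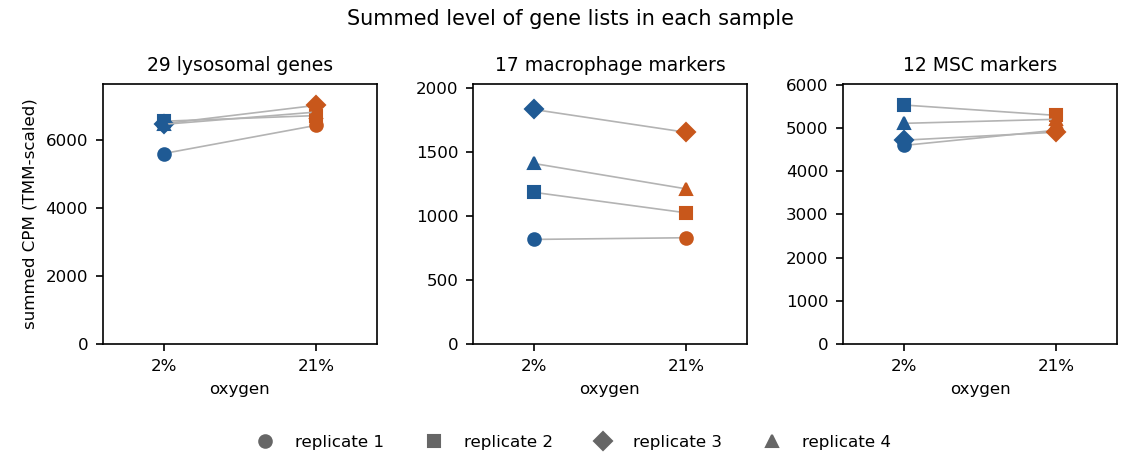
Summed CPM (TMM-scaled, axes from 0) of the 29 lysosomal genes, 17 macrophage markers and 12 MSC markers in each sample at 2% (blue) and 21% (orange) oxygen, with symbols for replicate numbers and lines joining the same number. Hypoxia replicate 1 is the low point of the lysosomal genes at 5607, and the macrophage markers are highest in replicate 3 of both groups (1830 and 1652).

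The rest of the lysosomal system was described with 130 further genes in 6 lists, of which 125 were tested. In these, 23 rose and 30 fell (42.4% called, beside 34.6% of all tested genes, 18.0% higher and 16.5% lower) with a median log2 change of -0.05, beside 0.00 for all tested genes. The same shares of all tested genes stand behind the counts of each list below. Library size alone gave 31 higher and 18 lower further genes, beside 25.1% and 11.0% of all tested genes. Leaving out replicate 3 of both groups gave 13 and 14, beside 10.2% and 9.37%. The replicate block gave 27 and 42 (55.2%), beside 46.0% of all tested genes in either direction, 23.3% higher and 22.7% lower. Among 35 other soluble hydrolases and activators 4 rose and 10 fell. Grn (progranulin, a lysosomal protein precursor) fell from a mean log2 CPM of 9.39 ± 0.17 (SD) in hypoxia to 8.77 ± 0.12 in normoxia (log2 change -0.62 ± 0.089, adjusted p = 0.00039), and Arsa, the arylsulfatase that degrades sulfatide, fell by 0.48 (adjusted p = 0.0015). Acp5 fell by 1.10 (adjusted p = 0.0093) on 4 to 25 counts a sample.

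Among 27 tested membrane proteins other than the members 4 rose and 11 fell. Ostm1, a subunit of the lysosomal chloride transporter whose loss causes osteopetrosis, rose from 4.24 ± 0.07 to 5.10 ± 0.06 (log2 change 0.86 ± 0.072, adjusted p = 3.6e-05). The nucleoside transporter Slc29a3 fell by 0.46 (adjusted p = 0.00035) and the cystine transporter Ctns by 0.44 (adjusted p = 0.0074). The macrophage marker Laptm5 belongs to this list as well.

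Of 19 subunits of the V-ATPase 6 rose and 2 fell, led by the V1 subunits Atp6v1c1 (log2 change 0.44 ± 0.069, adjusted p = 0.00063), Atp6v1e1 (0.40 ± 0.065, adjusted p = 0.00074) and Atp6v1d (0.33 ± 0.065, adjusted p = 0.0024). The change of Atp6v1d was 0.13 after the GC and length correction and did not pass. Of 19 genes for the sorting and maturation of lysosomal enzymes 4 rose and 2 fell. Gnptab and Gnptg, which encode the subunits of the phosphotransferase that makes the mannose 6-phosphate tag, rose by 0.57 ± 0.11 (adjusted p = 0.0024) and 0.45 ± 0.11 (adjusted p = 0.0095). Cln6, which helps enzymes leave the endoplasmic reticulum, fell from 4.95 ± 0.16 to 3.99 ± 0.08 (log2 change -0.97 ± 0.092, adjusted p = 6.0e-05).

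Of 21 genes of the MiT/TFE family and of mTORC1 control at the lysosome 5 rose and 5 fell. Mtor, the kinase itself, rose by 0.41 ± 0.079 (adjusted p = 0.0019) and Tsc1, part of the complex that inhibits it, by 0.44 ± 0.10 (adjusted p = 0.0071), while Lamtor4, part of the complex that anchors mTORC1 to the lysosome, fell by 0.39 (adjusted p = 0.0031), and did not pass after the GC and length correction (-0.15). Of 8 cystatins and other protease inhibitors 4 were tested and 0 passed by limma-trend, with 1 (Cst3, cystatin C) at an unadjusted p under 0.05; edgeR and limma-voom called 0, and DESeq2 and the replicate block called 1 each. CACGTG was found in 25.2% of the 103 further lysosomal genes with a promoter window.

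Base composition and overlap with neighbours could bear on some of these values, and the part of overlap was not tested. The median transcript GC content was 49.1% for the 6 members that rose, 55.8% for the 4 that fell and 51.3% for the 19 not called, beside 49.7% for all tested genes. The part of GC content in these changes was not tested, and the correction changed further calls and signs. Without the block, Lamp1 (0.20, adjusted p = 0.0082), Hexa (0.28, adjusted p = 0.014) and Neu1 (0.34, adjusted p = 0.024) were called higher after it. The changes of Lamp2 (-0.16), Scarb2 (-0.03), Ctsf (0.12), Man2b1 (0.03), Psap (0.10), Lipa (-0.06) and Tfeb (0.07) then had the other sign and were not called. The same held for Ctsl (-0.003). Whether the counting used strand was not stated: 12.8% of the exon bases of Ctsb lie opposite Fdft1 (3571 counts, against 95975 for Ctsb), 17.4% of those of Ctsa opposite Neurl2 and Pltp, and 7.6% of those of Cln3 opposite Apobr (4174 counts, against 580 for Cln3). Idua had 6.3% of its exon bases opposite Dgkq and Slc26a1 (1055 counts, against 3009 for Idua). Npc1 had 5.3% opposite Rmc1 and Gm15956 (1686 counts, against 7486 for Npc1). Lamp1, Hexa, Ctsl and Ctsz also lay opposite other genes in part. Reads from such stretches cannot be told apart. Ctsd shares 34.4% of its exon bases with Gm49369 on the same strand, which had 0 counts. Glb1 shares 5.5% with Tmppe on the same strand (946 counts, against 7349 for Glb1).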

How the data were processed

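RNA-seq was performed on 4 hypoxia and 4 normoxia samples of mouse bone MSCs. Per the study's methods, the authors aligned single-end reads with STAR through zUMIs, using samtools, and assigned them to Ensembl genes of mm10 with featureCounts. The deposited values are raw counts, whole and not normalized. Whether counting used strand, introns or reads mapping to several places is not given in the sources used here.

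Symbols and positions came from GENCODE M21 (GRCm38), which named 53360 of 53465 identifiers; the rest held 0.00364% of counts. Following the study, genes were kept by filterByExpr (minimum count 5; 14369 genes, 99.9% of counts) in edgeR 4.0.16 and tested with limma-trend (limma 3.58.1, R 4.3.3) at an adjusted p of 0.05. TMM factors, log2 CPM with a prior count of 3 and Benjamini-Hochberg adjustment over every gene tested were chosen here. A change is the normoxia mean minus the hypoxia mean, and the prior count shrinks it for genes of low count. Alternatives were limma-voom, DESeq2 1.42.0, edgeR's quasi-likelihood test, other scalings and filters, a prior count of 1, a threshold of 0.01, and leaving out each sample. The GC and length correction removed from each sample a spline with 5 degrees of freedom on either property, and would also remove a true change that follows them.

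The members and lists were chosen with earlier results of these data known, and 3 alternatives (without replicate 1 or 3 of both groups, and a macrophage covariate) were added after the data were seen. Every member was named, with up to 3 genes of each other list: those past the threshold, not overlapping and largest in change. Deviations of same-numbered samples from their group means correlated across genes at 0.47, 0.28, 0.25 and 0.17. Since the sorted population was also divided between oxygen levels, the numbers can pair the samples. The reported fit has no block, as in the study's methods, and the replicate block is an alternative. Its calls are given for each member where they differ and for the further lysosomal genes together, but not for most single lists. Among the markers it called 1 macrophage gene higher and 10 lower, and 5 MSC genes higher and 5 lower, beside 23.3% and 22.7% of all tested genes. In simulated counts for this comparison (1 draw, 14220 genes, 193 with a log2 change of 1) limma-trend found 87.6% of the changed genes, 86.5% with the block, and 3.43% and 3.47% of calls were false. Every gene was drawn with the same dispersion and without differences between replicates, and the change of 1 exceeds that of any member. These shares vary between draws, and an earlier draw gave limma-trend a higher share of changed genes found and of false calls. They do not measure how well the smaller changes of the members are found, or what the block does in the real samples. The level of 3 counts given for the libraries covers counting error only.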

Additional observations from a re-analysis of the deposited data

Results flagged for a closer look

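In 64 groups of 4 values searched (each member and summary in each oxygen group), 4 held a sample whose gap to its neighbour exceeded Dixon's 95% critical value as a share of the group's range, where chance gives about 3.2. Hypoxia replicate 1 was one in 3 of them. Its total of 25132141 counts stood against 12929564 to 13219647 in the other hypoxic samples (gap 0.976 of the range). Its summed level of the 29 lysosomal genes was 5607 CPM with TMM scaling, against 6467 to 6559 (0.903), and its Idua level was 4.64 log2 CPM, against 4.94 to 5.00 (0.832). Neu1 in normoxia replicate 3 was 4.28 log2 CPM, against 3.99 to 4.02 (0.902). Without hypoxia replicate 1, 6 members rose and 6 fell, against 6 and 4 with it. Of all tested genes 19.5% were higher and 17.6% lower without that sample, against 18.0% and 16.5% with it. The part of library depth in these values was not tested.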

How the results depend on the processing

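Over 23 alternatives, 607 of 667 member values kept their side of the threshold with no change of sign in a called value, 21 lost the call, 34 gained one and 5 changed sign with a call in either fit; Ctsb, Ctsd, Ctsh, Ctsk and Manba were called higher in all 23. The counts, 6 members higher and 4 lower and 23 and 30 further lysosomal genes, moved as follows. The replicate block gave 11 and 8 members, beside 23.3% and 22.7% of all tested genes. The block with the GC and length correction gave 8 lower, beside 21.5%. The macrophage covariate gave 10 and 2, beside 15.6% and 14.2%. Library size alone gave 2 lower members and 18 lower further genes, beside 11.0% of all tested genes. A threshold of 0.01 gave 1 and 19. Leaving out samples, which by construction leaves fewer of them, gave 5 to 8 members higher and 1 to 6 lower (2 without hypoxia replicate 3 and 1 without replicate 3 of both groups), and 13 to 25 and 14 to 38 further genes, with 13 and 14 without replicate 3 of both groups. Without replicate 3 of both groups, 10.2% of all tested genes were higher and 9.37% lower. For the other alternatives the counts stayed within 1.5 times those reported.

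Changes of sign came with the GC and length correction: Lamp2 -0.16 with the block, Ctsz 0.058 without and with it, and Ids -0.20 without and with it; the cause was not tested. The replicate block by itself cannot turn a direction, since each number occurs once in either group and the fitted change is then the same. It lost no call of a member. Cln3 and Tfeb had the fewest counts of the members, 580 and 948 over all samples; the part of depth in their values was not tested.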
